A study of Mus musculus with 18 samples.

Results

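The proteasome is the protease that degrades proteins tagged with ubiquitin, and its genes were examined in mouse muscle under endoplasmic reticulum stress (ERS). Genes were taken as members when their symbol was Psm followed by one of the letters a to g and a number, and when at least 1 probeset carried that symbol alone. This gave 47 of the 22180 genes measured. They comprised 13 constitutive subunits of the 20S core (6 alpha and 7 beta), 17 subunits of the 19S regulator (6 ATPases and 11 others), 3 immunoproteasome subunits, the testis alpha subunit Psma8, the thymus beta subunit Psmb11, 4 genes of activators, the inhibitor Psmf1, 3 chaperones of 19S assembly and 4 of 20S assembly.

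Background on this machine is as follows. The 20S core is a barrel whose outer rings are built of alpha subunits and whose inner rings are built of beta subunits, and the catalytic sites lie on the beta subunits encoded by Psmb5, Psmb6 and Psmb7. The 19S regulator binds ubiquitinated proteins, removes the ubiquitin and unfolds the chain with its ring of ATPases. In cells exposed to interferon the catalytic subunits can be replaced by Psmb8, Psmb9 and Psmb10, which gives the immunoproteasome, and leucocytes hold it without such exposure. Misfolded proteins that leave the endoplasmic reticulum end in the proteasome, and in muscle the proteasome also degrades fibre proteins during atrophy.

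Tunicamycin, which blocks N-linked glycosylation and so causes ERS, was injected at 30 µg in 30 µL into the gastrocnemius of 1 leg, and the contralateral muscle of the same mouse received saline. Muscles were collected after 24 h from 9 mice, which gave 9 tunicamycin and 9 saline arrays of total RNA. All mice were wild type. By the labels they were females of a C57Bl6/J and SV129 mix, although male C57BL/6J mice are named in the methods on animals, and the labels give no age. Every mouse received tunicamycin in 1 leg, so effects that reach both legs are not seen in these differences. Values are log2 signals, differences are log2 tunicamycin minus saline within a mouse and are given for a gene with limma's moderated SE, and a gene was called at an adjusted p under 0.05 by limma. Array medians ran from 4.99 to 5.07, and precision is limited by how many arrays there were. Of 10 muscle fibre markers 0 were called, against 10.9% of all genes. Their mean level was 11.72 to 11.90 in tunicamycin legs and 11.75 to 11.90 in saline legs. Several lay near the top of the signal range, such as Myh4 (mean 12.88 in tunicamycin and 12.87 in saline legs). Probesets this bright may report a difference poorly, and whether fibre content differed between the legs was not tested. Mouse 9 had an Xist signal of 4.90 in its tunicamycin leg and 4.79 in its saline leg, against 9.22 to 9.52 in the other mice, while its Uty, Kdm5d and Eif2s3y signals lay within the range of the other mice, so results that turned on mouse 9 are given without it.

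The ERS genes Hspa5 and Derl3 were higher in tunicamycin legs, whereas no proteasome gene passed the test. Hspa5, which encodes the ER chaperone BiP, was higher by 1.36 ± 0.12 (adjusted p = 0.000119) and Derl3, a factor of ER-associated degradation, by 2.00 ± 0.15 (adjusted p = 8.31e-05), both in 9 of 9 mice. The Hspa5 difference was 0.583 in mouse 1 and 0.729 in mouse 9, against 1.321 to 2.045 in the other mice. That of Derl3 was 1.798 in mouse 1 and 1.117 in mouse 9, against 1.521 to 3.016 in the others. Of the 47 proteasome genes, 0 were called in either direction, against 10.9% of all genes (4.72% higher and 6.15% lower). The lowest adjusted p among them was 0.0802, that of Psmc2. Of all 47 differences 33 were below 0, against 47.3% of all genes and 55.3% of genes above the median signal. On the same side of 0 in at least 8 mice lay 12 members, against 18.9% of all genes. At an unadjusted p under 0.05, 7 of 47 passed (14.9%), 5 higher and 2 lower, against 25.6% of all genes. The 5 were Psmb8, Psmb9, Psmb10, Psmd8 and Psme3, and the 2 were Psmb1 and Psmc2. For 0 of the 47 did the tunicamycin and saline legs separate without overlap, against 0.564% of all genes. In a bulk tissue, fewer cells of a type and less RNA per cell cannot be told apart.

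The intervals bound how large a difference in array signal could have been missed. Member SEs ran from 0.038 to 0.070 with a median of 0.046, against a median of 0.058 for all genes, and the members' median signal was 8.43, against 5.41 for all genes. In 35 of 47 members the 95% interval lay between -0.2 and 0.2 on the log2 scale, a fold of up to 1.15. The highest upper bound was 0.26 (1.2-fold), for Psmb3, and the lowest lower bound was -0.26 (0.833-fold), for Psmc2. Psmb3 had a low signal for a constitutive subunit (mean 5.78), as did Psma5 (4.91 in tunicamycin and 4.96 in saline legs). Psma8, Psmb9, Psmb11 and Psmg4 also had mean signals below that of Psmb3. Probesets this dim may report a difference poorly. Every interval bounds the signal only, and for dim genes the transcript may differ by more. Called genes had a median absolute difference of 0.25 and a smallest one of 0.12.

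**Figure D1:**
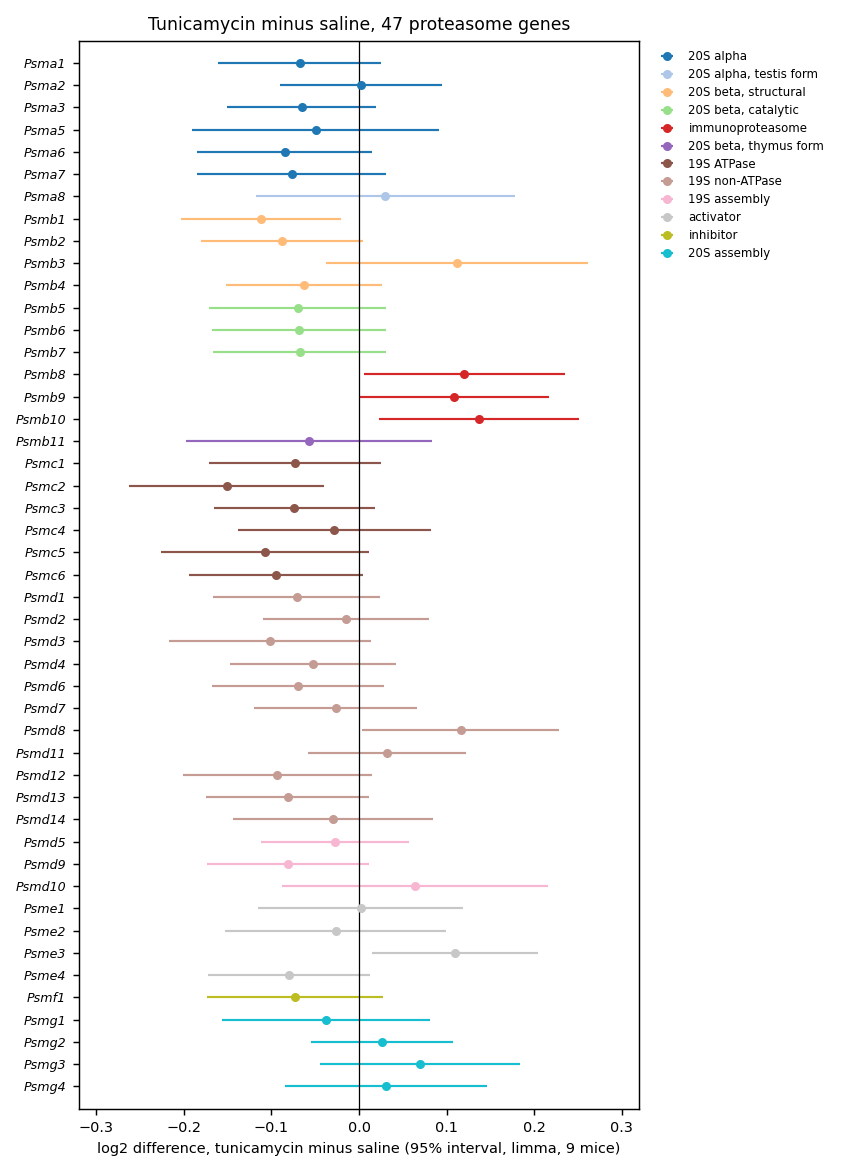
Log2 difference (tunicamycin minus saline, x axis) of each of the 47 proteasome genes, ordered by role; points are means over 9 mice and bars 95% intervals from limma. Differences run from -0.15 for Psmc2 to 0.14 for Psmb10, with the immunoproteasome genes above 0 and most constitutive subunits below 0.

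The immunoproteasome subunits were the group with the highest differences, and 0 of the 3 were called, against 10.9% of all genes. Psmb8, the inducible counterpart of Psmb5, had a lowest, median and highest signal of 5.81, 6.01 and 6.11 in tunicamycin legs, against 5.75, 5.81 and 6.05 in saline legs. Psmb9, the counterpart of Psmb6, had 5.11, 5.28 and 5.36 in tunicamycin legs, against 4.98, 5.16 and 5.29 in saline legs. Psmb10, the counterpart of Psmb7, had 6.47, 6.67 and 6.84 in tunicamycin legs, against 6.38, 6.53 and 6.69 in saline legs. For all 3 genes the ranges of the tunicamycin and saline legs overlapped, while 8 of 9 mice had the higher signal in the tunicamycin leg. The differences were 0.12 ± 0.053 (adjusted p = 0.174) for Psmb8, 0.11 ± 0.050 (adjusted p = 0.192) for Psmb9 and 0.14 ± 0.053 (adjusted p = 0.119) for Psmb10. Psmb8 and Psmb9 were lower in the tunicamycin leg of mouse 6, and Psmb10 was lower in that of mouse 9. Without mouse 9, Psmb10 was called at 0.18 (adjusted p = 0.0173, limma), with 6.03% of all genes called higher in that fit.

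The constitutive catalytic subunits lay on the other side of 0. Psmb5, which cuts after hydrophobic residues, had a lowest, median and highest signal of 8.05, 8.26 and 8.44 in tunicamycin legs, against 8.20, 8.37 and 8.45 in saline legs. Psmb6, which cuts after acidic residues, had 8.54, 8.62 and 8.81 in tunicamycin legs, against 8.59, 8.68 and 8.85 in saline legs. Psmb7, which cuts after basic residues, had 10.10, 10.25 and 10.33 in tunicamycin legs, against 10.14, 10.31 and 10.41 in saline legs. The legs overlapped for each of them, and the differences were close to one another, at -0.070 ± 0.047 (adjusted p = 0.38) for Psmb5, -0.069 ± 0.046 (adjusted p = 0.384) for Psmb6 and -0.068 ± 0.045 (adjusted p = 0.384) for Psmb7. Their mean was lower in the tunicamycin leg in 8 of 9 mice. Without mouse 4 the differences were -0.040 for Psmb5, -0.042 for Psmb6 and -0.037 for Psmb7, and after a further quantile normalization they were -0.031, -0.029 and -0.017 in the same order.

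Each inducible subunit was then set against the one it replaces, within each mouse. The difference of Psmb8 exceeded that of Psmb5 by 0.19 ± 0.15 (SD, n = 9), above 0 in 8 of 9 mice (two-sided exact sign-flip permutation p = 0.0117, adjusted over 3 pairs 0.0293). For Psmb9 over Psmb6 it was 0.18 ± 0.21 (SD, n = 9), above 0 in 7 of 9 mice (exact p = 0.0312, adjusted 0.0312). For Psmb10 over Psmb7 it was 0.21 ± 0.21 (SD, n = 9), above 0 in 8 of 9 mice (exact p = 0.0195, adjusted 0.0293). All 3 pairs passed with 9 mice, where the smallest p the test can give is 0.00391. Each pair set a dim probeset beside a bright one. Mean signals were 5.93 for Psmb8 and 8.31 for Psmb5, and 6.60 for Psmb10 and 10.26 for Psmb7. Psmb9, at 5.21, lay below the all-gene median of 5.41, while Psmb6 was at 8.665. Whether the gap in signal bears on these results was not tested. The Psmb9 pair did not pass after a further quantile normalization (0.10, exact adjusted p = 0.129) nor without mouse 1, 3, 4, 8 or 9 (exact adjusted p = 0.0625 each), and the other 2 pairs did not pass without mouse 3, 4 or 8 (exact adjusted p = 0.0586 each).

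**Figure D2:**
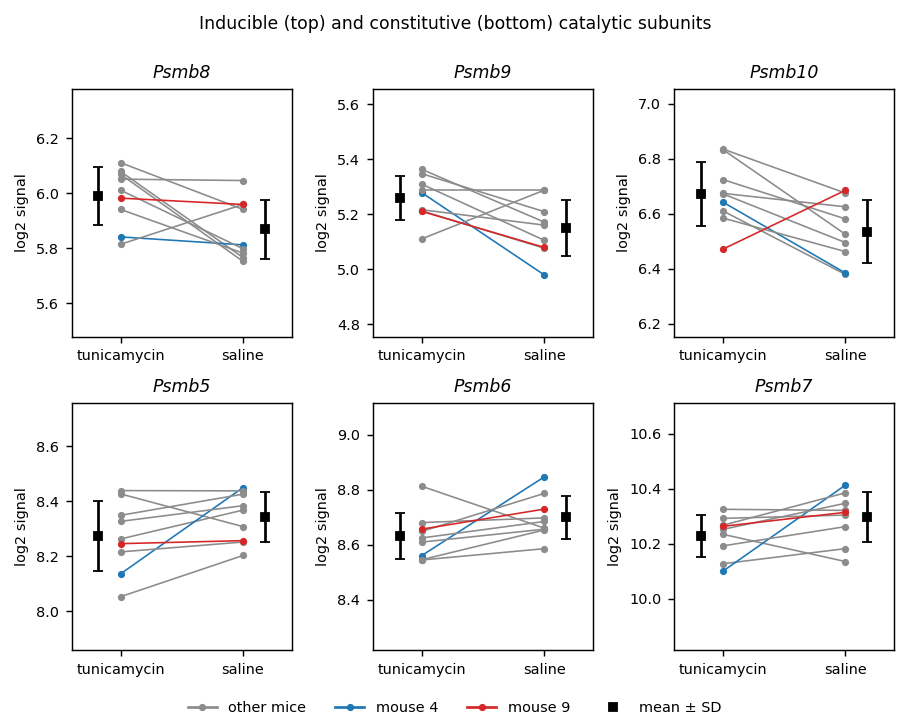
Log2 signal (y axis) of the 3 inducible and 3 constitutive catalytic subunits in the tunicamycin and saline leg of each of 9 mice; lines join the legs of 1 mouse (mouse 4 blue, mouse 9 red) and black squares give the mean ± SD. Psmb8, Psmb9 and Psmb10 are higher in the tunicamycin leg in 8 of 9 mice each, and the ranges of the legs overlap for all 6 genes.

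Upstream sequence is shown for the catalytic genes Psmb5, Psmb6, Psmb8 and Psmb9, in which a searched motif was found, because proteasome and interferon-inducible genes are known for particular elements there. Psmb7 was not searched here. The antioxidant response element is bound by Nfe2l1, the factor that raises proteasome genes when proteasome activity is low, and the GAS palindrome is bound by STAT factors after interferon. The 250 bases before the start of each gene were taken from RefSeq (GRCm38.p6), where 39 of the 47 members had an entry, and both strands were searched. Capitals mark the match. Psmb5 (chr14:54617996-54618245, minus strand) and Psmb6 (chr11:70525107-70525356, plus strand) each held an antioxidant response element core, TGACNNNGC, with its first base at position -47 for Psmb5 and -9 for Psmb6 from the start.
Psmb5: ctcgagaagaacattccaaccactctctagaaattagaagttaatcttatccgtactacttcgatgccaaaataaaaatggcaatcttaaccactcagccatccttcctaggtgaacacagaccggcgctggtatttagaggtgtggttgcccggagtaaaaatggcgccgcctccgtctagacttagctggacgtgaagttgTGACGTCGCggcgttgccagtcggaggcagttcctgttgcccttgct
Psmb6: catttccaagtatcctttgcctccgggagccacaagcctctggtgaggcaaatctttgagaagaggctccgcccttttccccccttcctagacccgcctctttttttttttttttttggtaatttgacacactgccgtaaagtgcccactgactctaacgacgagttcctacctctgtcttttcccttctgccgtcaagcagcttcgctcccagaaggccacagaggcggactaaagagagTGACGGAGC
Psmb8 (chr17:34197945-34198194, plus strand) held a GAS palindrome, TTCNNNGAA, at position -97. Psmb9 (chr17:34187331-34187580, minus strand) held a CCAAT box, CCAAT, on the opposite strand at -8, and its window overlapped that of the peptide transporter gene Tap1 by 225 bases on the opposite strand.
Psmb8: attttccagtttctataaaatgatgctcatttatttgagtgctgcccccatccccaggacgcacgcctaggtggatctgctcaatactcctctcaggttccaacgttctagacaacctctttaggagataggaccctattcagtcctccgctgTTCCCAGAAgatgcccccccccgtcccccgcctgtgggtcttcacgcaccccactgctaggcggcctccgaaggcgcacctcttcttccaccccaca
Psmb9: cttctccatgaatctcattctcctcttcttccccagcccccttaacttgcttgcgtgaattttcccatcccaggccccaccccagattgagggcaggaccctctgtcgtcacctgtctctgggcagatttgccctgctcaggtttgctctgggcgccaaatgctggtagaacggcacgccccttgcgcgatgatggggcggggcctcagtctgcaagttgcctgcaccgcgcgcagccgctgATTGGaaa

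The same letters were counted in the upstream windows of all genes with an entry. The antioxidant response element core was in 5 of 39 members (Psmb5, Psmb6, Psmc6, Psmd9 and Psmd12), against 11.5% of 27025 genes. The CCAAT box was in 14 of 39, against 37.5%, and the GAS palindrome in 2 of 39 (Psmb8 and Psmg1), against 8.13%. A pair of half-sites of interferon regulatory factors, GAAA and GAAA with NN between, was in 3 of 39, against 3.46%. The ER stress response element, CCAAT and CCACG with 9 bases between, was in 0 of 39, against 0.13%. Psmb10 held none of these motifs in its window. A match is a run of letters and was not tested as a site.

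Across the 30 constitutive 20S and 19S subunits, 26 differences were below 0 and 4 above, with a median of -0.069, against 0.0064 for all genes and -0.018 for genes above the median signal. Their mean was -0.054 ± 0.081 (SD, n = 9), below 0 in 7 of 9 mice. Mouse 4 had the lowest mean, -0.23, with 28 of 30 subunits lower in its tunicamycin leg, followed by mouse 8 at -0.12, also with 28 of 30. Without mouse 4 the mean was -0.032, and 24 of 30 were below 0. After a further quantile normalization 23 of 30 were below 0 and the median was -0.033, against -0.0046 for all genes, and after centring on array medians 27 of 30 were below 0 with a median of -0.088, against -0.012 for all genes. In 27 of the 30 the upper bound of the interval was below 0.1, a fold of 1.07. These counts include Psma5 and Psmb3, the dimmest of the 30.

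**Figure D3:**
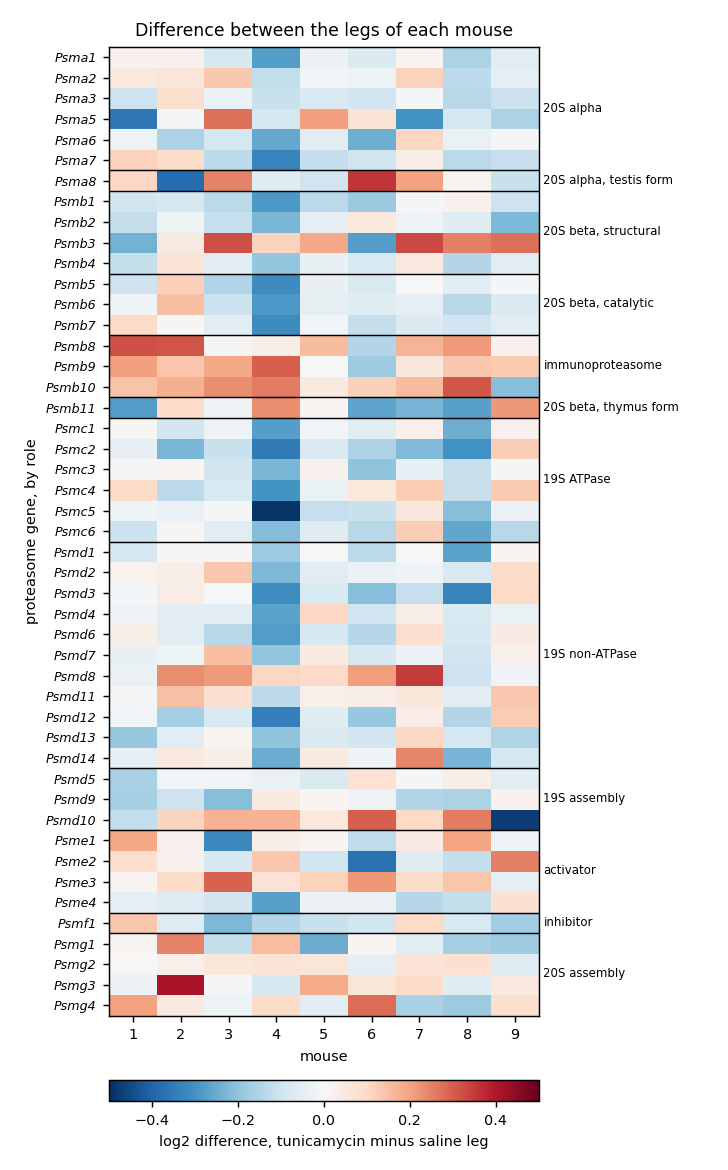
Log2 difference (tunicamycin minus saline, colour) of each of the 47 proteasome genes (rows, by role) in each of 9 mice (columns). The constitutive subunits are lowest in mouse 4, where their mean is -0.23, and the immunoproteasome genes are above 0 in 8 of 9 mice each.

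In the alpha rings, which gate the entrance to the core, 5 of 6 measured subunits had differences below 0, and the lowest p were those of Psma6 and Psma3. Psma6 had a lowest, median and highest signal of 8.59, 8.65 and 8.70 in tunicamycin legs, against 8.55, 8.70 and 8.86 in saline legs, a difference of -0.085 ± 0.046 (adjusted p = 0.274). Psma3 had 9.96, 10.14 and 10.25 in tunicamycin legs, against 9.99, 10.23 and 10.36 in saline legs, a difference of -0.066 ± 0.039 (adjusted p = 0.32). Both were lower in the tunicamycin leg in 8 of 9 mice, and their ranges overlapped. The other alpha subunits lay between -0.077 (Psma7) and 0.0021 (Psma2), and the testis subunit Psma8, near the low end of signal, had 4.10, 4.63 and 4.91 in tunicamycin legs, against 4.27, 4.58 and 4.76 in saline legs, a difference of 0.030 ± 0.068 (adjusted p = 0.832). The sign of the Psma8 difference turned after a further quantile normalization (-0.0012) and without mouse 6 (-0.011).

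Among the structural beta subunits, which carry no catalytic site, Psmb1 had the lowest p. Its lowest, median and highest signals were 9.64, 9.72 and 9.96 in tunicamycin legs, against 9.65, 9.86 and 10.04 in saline legs, a difference of -0.11 ± 0.042 (adjusted p = 0.111), lower in 8 of 9 mice. Psmb1 was called lower when only genes above the median signal were tested (adjusted p = 0.0444, limma, with 16.7% of those genes called lower) and with a trended, robust prior (0.0433, with 7.57% called lower). Psmb2 had 8.45, 8.57 and 8.81 in tunicamycin legs, against 8.47, 8.69 and 8.81 in saline legs, a difference of -0.088 ± 0.043 (adjusted p = 0.216). Psmb4 was at -0.063, and Psmb3, on the other side of 0, was at 0.11 ± 0.069 (adjusted p = 0.341), higher in 7 of 9 mice. The thymus subunit Psmb11 had a low signal, 4.14, 4.22 and 4.53 in tunicamycin legs, against 4.23, 4.32 and 4.48 in saline legs, and a difference of -0.057 ± 0.065 (adjusted p = 0.639).

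All 6 ATPases of the 19S base, the motor that unfolds substrates, had differences below 0. Psmc2 had the lowest adjusted p of all members, with a lowest, median and highest signal of 8.17, 8.35 and 8.53 in tunicamycin legs, against 8.28, 8.49 and 8.68 in saline legs, lower in 8 of 9 mice. Its difference was -0.15 ± 0.052 (adjusted p = 0.0802). Its 2 probesets were unequal, at -0.089 (adjusted p = 0.309) for the brighter and -0.21 (0.0945) for the dimmer. Psmc2 was called lower with array weights (adjusted p = 0.0393, with 7.72% of all genes lower) and after centring on array medians (0.0436, with 8.05% lower). It was also called among genes above the median signal (0.038), with a trended, robust prior (0.0412) and, at -0.19, without mouse 9 (0.0246, with 6.53% lower), but not with the brightest probeset alone, all by limma. Psmc6 had 9.78, 10.01 and 10.20 in tunicamycin legs, against 9.84, 10.13 and 10.33 in saline legs, a difference of -0.095 ± 0.046 (adjusted p = 0.22). The other 4 lay between -0.11 (Psmc5) and -0.028 (Psmc4).

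Of the 11 non-ATPase subunits, which recognise and process ubiquitin chains or form the lid, 9 had differences below 0 and 2 above. Psmd8, a lid subunit, had a lowest, median and highest signal of 10.10, 10.28 and 10.45 in tunicamycin legs, against 9.97, 10.18 and 10.30 in saline legs, a difference of 0.12 ± 0.052 (adjusted p = 0.18), higher in 6 of 9 mice. Psmd3, also of the lid, had 8.73, 8.83 and 9.09 in tunicamycin legs, against 8.82, 8.93 and 9.22 in saline legs, a difference of -0.10 ± 0.053 (adjusted p = 0.257), lower in 6 of 9 mice. The legs overlapped for both, although they lay on opposite sides of 0. Psmd14, the deubiquitinase of the lid, was at -0.030, the ubiquitin receptor gene Psmd4 at -0.053 and the scaffold gene Psmd2 at -0.015.

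The activators, which open the core without the 19S regulator, had 2 of 4 differences above 0, and 0 were called, against 10.9% of all genes. Psme3, which encodes the nuclear activator PA28 gamma, had a lowest, median and highest signal of 7.65, 7.83 and 7.99 in tunicamycin legs, against 7.54, 7.74 and 7.80 in saline legs, a difference of 0.11 ± 0.044 (adjusted p = 0.132), higher in 8 of 9 mice. Psme4, which encodes PA200, had 10.02, 10.21 and 10.29 in tunicamycin legs, against 10.14, 10.24 and 10.40 in saline legs, a difference of -0.080 ± 0.043 (adjusted p = 0.266), lower in 8 of 9 mice. These 2 genes lay on opposite sides of 0 without passing the test. Psme1 and Psme2, the interferon-inducible PA28 alpha and beta genes, were at 0.0017 ± 0.054 (adjusted p = 0.989) and -0.027 ± 0.058 (adjusted p = 0.823). The inhibitor gene Psmf1 had 7.08, 7.22 and 7.25 in tunicamycin legs, against 7.11, 7.27 and 7.40 in saline legs, a difference of -0.073 ± 0.047 (adjusted p = 0.358).

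Chaperones of assembly were mixed in direction. For the 19S chaperones, Psmd9 had 6.41, 6.54 and 6.67 in tunicamycin legs, against 6.54, 6.60 and 6.69 in saline legs, a difference of -0.081 ± 0.043 (adjusted p = 0.259). Psmd10, which encodes gankyrin, had 6.18, 6.58 and 6.75 in tunicamycin legs, against 6.21, 6.49 and 6.65 in saline legs, a difference of 0.063 ± 0.070 (adjusted p = 0.628) that held a value of -0.47 in mouse 9. Without mice 1 and 9 Psmd10 was called higher, at 0.17 (adjusted p = 0.0378, limma, with 7.05% of all genes called higher in that fit). With all mice Psmd5 was at -0.028. For the 20S chaperones, Psmg3 had 5.94, 6.10 and 6.40 in tunicamycin legs, against 5.88, 6.05 and 6.22 in saline legs, a difference of 0.069 ± 0.053 (adjusted p = 0.455) that held a value of 0.41 in mouse 2 and was 0.026 without that mouse. Psmg2 had 5.83, 5.92 and 5.98 in tunicamycin legs, against 5.82, 5.89 and 5.97 in saline legs, a difference of 0.026 ± 0.037 (adjusted p = 0.725). These values average 2 unequal probesets. The brighter (mean 7.73 in tunicamycin legs) was at 0.0495, and the dimmer (mean 4.11 in tunicamycin legs) at 0.0019. Psmg1 was at -0.037 and Psmg4 at 0.031.

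Genes that work beside the proteasome were described from lists drawn from general knowledge. Of 14 measured partners of the proteasome, such as deubiquitinases and shuttle factors, 0 were called at an adjusted p under 0.05, against 10.9% of all genes. The lowest p among these partners were those of Uchl5 (-0.13, adjusted p = 0.0699), Usp14 (-0.12) and Zfand5 (-0.13). A list of 8 measured genes held Nfe2l1, its relatives Nfe2l2 and Nfe2l3, their small MAF dimer partners and the Nfe2l1-processing genes Ngly1 and Vcp. In it 1 was higher, against 4.72% of all genes, the dimer partner Mafk (0.22 ± 0.061, adjusted p = 0.0362), and 1 was lower, against 6.15%, the deglycosylase Ngly1 (-0.20 ± 0.052, adjusted p = 0.0308, lower in 9 of 9 mice). The other small MAF genes were at -0.18 ± 0.066 (adjusted p = 0.107) for Maff and -0.080 ± 0.046 (adjusted p = 0.306) for Mafg, and Nfe2l1 itself was at 0.080 ± 0.046 (adjusted p = 0.299). Of 11 genes made up of the segregase Vcp and its adaptors, 1 was lower, against 6.15% of all genes, the ubiquitin ligase Ube4a (-0.22 ± 0.047, adjusted p = 0.0127). Of 9 genes of class I antigen presentation, the pathway that takes up peptides from the immunoproteasome, 4 were higher, against 4.72% of all genes. They were Tapbpl (0.28 ± 0.055, adjusted p = 0.00857), Tap1 (0.22 ± 0.061, adjusted p = 0.0379), B2m (0.23 ± 0.066, adjusted p = 0.0394) and Nlrc5 (0.16 ± 0.047, adjusted p = 0.0434). Of 11 interferon regulators 2 were higher, against the same 4.72%, Stat2 (0.45) and Irf9 (0.32).

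Leucocytes express the immunoproteasome, so leucocyte markers were set beside it. Of 12 markers 7 were higher and 0 lower, against 4.72% and 6.15% of all genes, and their mean signal was 6.11 to 7.06 in tunicamycin legs, with a median of 6.79, against 5.78 to 6.55 in saline legs, with a median of 6.29. Their mean difference was 0.50 ± 0.44 (SD, n = 9), above 0 in 8 of 9 mice and -0.44 in mouse 9. Of 7 T and NK cell markers 0 were called, against 10.9% of all genes, and of 5 neutrophil markers 3 were higher, against 4.72%. Across 9 mice, the difference of the leucocyte markers had r = -0.031 with that of Psmb8 (exact permutation p = 0.936, adjusted 0.936, rho = -0.183, p = 0.644) and r = -0.304 with that of Psmb9 (exact p = 0.406, adjusted 0.609, rho = -0.3, p = 0.437). For Psmb10 r was 0.617 (exact p = 0.0952, adjusted over 3 relations 0.285) and rho 0.0 (exact p = 1), and without mice 1 and 9, the farthest from the median, r was -0.744 (exact p = 0.0569), so the positive value rested on those mice. Without them r was 0.0623 for Psmb8 and -0.379 for Psmb9. These relations rest on 9 mice and on small differences of the 3 genes. The part of leucocytes in the immunoproteasome differences was not tested.

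**Figure D4:**
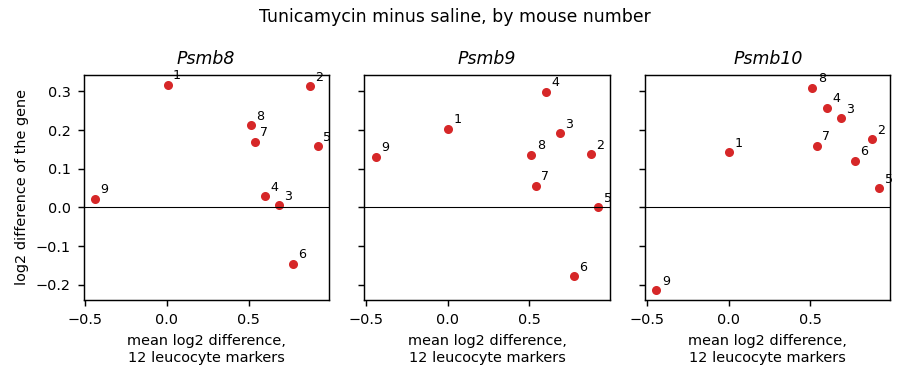
Log2 difference (tunicamycin minus saline) of Psmb8, Psmb9 and Psmb10 (y axes) against the mean log2 difference of 12 leucocyte markers (x axis); each number is 1 of 9 mice. The markers are at -0.44 in mouse 9 and 0.0037 in mouse 1, and Pearson's r is -0.031, -0.304 and 0.617 for the 3 genes in that order.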

How the data were processed

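Total RNA of 18 gastrocnemius muscles was measured on MoGene-2_0-st Affymetrix arrays. The authors deposited log2 values, made in Partek by RMA (background correction, quantile normalization, median polish). Such values compress large folds, and no detection call was used. Of 41345 probesets, 23521 carried 1 symbol, 1820 several and 16004 none in the annotation used here, and those of 1 symbol were averaged to 22180 genes. Genes were tested with limma 3.58.1 (R 4.3.3; linear fit with moderated variance), the mouse being a block, with Benjamini-Hochberg adjustment over all genes, after a test on simulated data. Legs were paired because, per the labels, 1 animal received both injections. Deviations of the legs of 1 mouse had a median r of 0.122, against -0.0127 between mice. This r was below 0 for mouse 1 (-0.028) and mouse 9 (-0.039). Of the 9 tunicamycin legs, 6 had their highest r with the saline leg of their own mouse. Pair differences were tested by exact sign flips (512 patterns) and correlations by exact permutation (scipy 1.17.1). Values in every group are given for the 6 catalytic genes, for any called member and for the 2 members of smallest p in each role, and up to 3 genes of smallest p are named from each list. Nlrc5, Nfe2l1 and Mafg were named after their values were seen. Members and lists were chosen with earlier results of these data known. Alternatives were no block, further quantile normalization, median centring, the brightest probeset, genes above the median signal, array weights, a trended, robust prior and leaving out mice.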

Additional observations from a re-analysis of the deposited data

Results flagged for a closer look

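Of 109 groups of 9 values examined, 4 held a value that stood far from the others by Dixon's test, which at the level used marks about 5% of groups by chance. The difference of Psmb10 was -0.214 in mouse 9, against 0.049 to 0.309 in the other mice. The difference of Psmc5 was -0.492 in mouse 4, against -0.211 to 0.057 in the others. The mean difference of the catalytic subunits Psmb5, Psmb6 and Psmb7 was -0.304 in mouse 4, against -0.105 to 0.091 in the others. The Psmb6 signal in the tunicamycin leg of mouse 2 was 8.812, against 8.544 to 8.68 in the other tunicamycin legs.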

How the results depend on the processing

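No member was called without the replicate block, where limma called 1859 of 22180 genes (8.38%) and 6 of 47 members had an unadjusted p under 0.05, against 22.5% of all genes, and the 3 pair differences kept permutation adjusted p = 0.016 each. Members called lower numbered 1 with array weights, against 7.72% of all genes, and 1 after centring on array medians, against 8.05%. They numbered 2 among genes above the median signal, against 16.7% of those genes, and 2 with the trended, robust prior, against 7.57%. Leaving out 1 mouse gave 0 to 1 members higher, against 2.54% to 6.03% of all genes, and 0 to 1 lower, against 3.34% to 6.65%. The 1 of each came without mouse 9 (Psmb10 and Psmc2), where 6.03% of all genes were higher and 6.53% lower. Without mice 1 and 9 there were 2 higher, against 7.05% of all genes, and 1 lower, against 7.42%. The count of all genes called ran from 1304 (without mouse 3) to 2787 (without mouse 9), against 2410 with all mice, and was 1565, 1363, 1406, 1466 and 1445 without mouse 2, 4, 5, 6 and 7. Leaving out 1 mouse, the pair differences ran from 0.16 to 0.22 for Psmb8 over Psmb5, from 0.13 to 0.21 for Psmb9 over Psmb6 and from 0.16 to 0.25 for Psmb10 over Psmb7, with exact adjusted p from 0.0234 to 0.0625. The Psmb9 pair was at 0.10 (exact adjusted p = 0.129) after a further quantile normalization and at 0.17 (0.125) without mice 1 and 9. Psma8 turned to -0.0012 after a further quantile normalization and ran from -0.011 to 0.082 with 1 mouse left out. The 23 members whose signals are given by group were the only ones run under the alternatives one by one. Among their results, each 1 gene in 1 setting, 375 kept direction and side of the threshold, 11 passed it and 2 changed sign. The 11 were results of Psmc2, Psmb1, Psmb10 and Psmd10. The cause of these shifts was not tested. Psma8 and Psmb11, near the low end of signal, had SEs of 0.068 and 0.065, against a median of 0.046 for members. The dim constitutive subunits Psma5 and Psmb3 had SEs of 0.065 and 0.069.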

Other observations

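The alpha subunit gene Psma4 was measured only by 2 probesets shared with AY074887 and so was no member here. Their differences were -0.066 (adjusted p = 0.432, limma over probesets) and 0.065 (adjusted p = 0.403). Of the 50 probesets that carried a member's symbol alone, 0 were called, with a lowest adjusted p of 0.0945, against 4.48% of all probesets.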
